A study of Mus musculus with 2 samples.

Results

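The Fc receptor genes described here are Fcgr1, Fcgr2b, Fcgr3, Fcgr4, Fcer1g, Fcrls and Fcgrt. They were found by gene symbol, and all 7 are present among the 55357 genes of the matrices. Mice aged 8 weeks gave CD45+ CD11b+ cells, sorted by flow cytometry after papain digestion of the cerebral cortex. A library was made from Msn knockout mice, which lack moesin, a protein that links the cell membrane to actin, and another from wild-type mice. Each pooled the cortices of 5 to 6 mice, and the knockout was on C57BL/6. No source used here gives the wild-type strain, the sex, or which stretch of Msn the knockout removes. With 1 pooled library of each genotype, genotype and library cannot be told apart, no test was made, and every interval is an exact 95% interval that covers counting error only.

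Fc receptors let immune cells read antibodies. The activating receptors for IgG bind the constant part of antibodies that coat a particle or form a complex, and they signal through the common gamma chain, whose tyrosine motif recruits the kinase Syk and starts phagocytosis, oxidative burst and cytokine release. A single inhibitory receptor, encoded by Fcgr2b, binds the same complexes and recruits phosphatases, so that the balance of the kinds sets how strongly a cell responds. In the brain, microglia use these receptors to take up antibody-coated material such as opsonized amyloid, while blood monocytes and the macrophages of the brain borders carry sets of their own.

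Cells were assigned to classes by pairs of marker genes. A kept cell (at least 500 genes and at most 10% mitochondrially encoded UMIs) entered a gate when it had both markers of that class and no other complete pair. The gates were microglia (P2ry12 and Tmem119), patrolling monocytes (Ace and Treml4), classical monocytes (Ly6c2 and Ccr2), border macrophages (Mrc1 and Pf4) and natural killer (NK) cells (Ncr1 and Nkg7). In the knockout library they held 4579, 417, 96, 133 and 58 cells, against 5017, 26, 20, 24 and 0 cells in the wild-type library. For each class, all 6 further markers that were not used for gating had UMIs in its own gate, in the knockout library and, for the 4 classes it fills, in the wild-type library. Markers of other classes had UMIs too, so this alone does not separate the classes. In the patrolling gate, classical monocyte markers summed to 3064 CPM (knockout) and 2533 CPM (wild-type), against 4349 and 3785 CPM of its own. In the border macrophage gate they summed to 623 and 1022 CPM, against 3191 and 3032 CPM of its own. The border macrophage gate also held microglial RNA, with 5 microglial check markers at 15.6% of their microglial level in the knockout library and 12.1% in the wild-type library, against 1.59 to 4.32% in the monocyte and NK gates. T cells (Cd3e and Trbc2), B cells (Cd79a and Ms4a1) and neutrophils (S100a8 and S100a9) were gated as background. No member was used for any gate.

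The libraries differed in depth and make-up. The knockout library had 9038 barcodes (median 4816 UMIs), against 5842 barcodes (median 6706 UMIs) for wild-type, and the median mitochondrially encoded share was 0.557% against 1.45%. The gates left 29.5% of kept knockout cells and 8.73% of kept wild-type cells unassigned. Msn stood at 20.6 CPM (the gene's UMIs scaled to the gate's total) in knockout microglia and 321 CPM in wild-type microglia, with 56.8 against 1109.7 CPM in patrolling monocytes. The libraries share 13 barcodes. In the microglia gate the median log2 ratio of knockout over wild-type over all measured genes was −0.29, so the members' ratios over a whole gate are given both on the CPM scale and after that median is taken off. Ratios by depth are on the CPM scale, and ratios of list genes are relative to the median unless the CPM scale is named. Genes were measured at 10 CPM or more in at least 1 of the groups compared, and called at 1.5-fold.

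Of the activating receptors, Fcgr1 encodes the high-affinity IgG receptor, and it was highest in microglia. The gene (ENSMUSG00000015947) lies on chromosome 3, 96190225 to 96201338, minus strand, GRCm39. Fcgr1 stood at 380.5 CPM in microglia, 304 CPM in border macrophages, 195 CPM in classical monocytes, 104 CPM in patrolling monocytes and 16.9 CPM in NK cells of the knockout library. Wild-type levels were 399 CPM in microglia, 376 CPM in border macrophages, 305 CPM in classical monocytes and 81.7 CPM in patrolling monocytes. Each step of the knockout order exceeded the counting intervals. In the wild-type library, with 24 and 20 cells in the middle gates, only patrolling monocytes fell below the neighbouring class. The NK level lay within what microglial RNA at the share of the microglial markers would give, 11.5 CPM.

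Fcgr3, the low-affinity activating receptor, followed the same order. The gene (ENSMUSG00000059498) lies on chromosome 1, 170878738 to 170893549, minus strand. Fcgr3 stood at 1121 CPM in microglia, 878 CPM in border macrophages, 328 CPM in classical monocytes, 214 CPM in patrolling monocytes and 84.6 CPM in NK cells of the knockout library. The wild-type library gave 1025 CPM in microglia, 682 CPM in border macrophages, 346 CPM in classical monocytes and 259 CPM in patrolling monocytes. Microglia were above border macrophages in both libraries, and the wild-type monocyte gates overlapped. The NK value rests on 25 UMIs (54.7 to 125 CPM), above the 33.9 CPM that microglial RNA would give at the marker share of 3.03%.

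Fcgr4, the receptor that binds IgG2a and IgG2b in mice, was the gene of patrolling monocytes. The gene (ENSMUSG00000059089) lies on chromosome 1, 170846466 to 170857330, plus strand, between Fcgr2b and Fcgr3. Fcgr4 stood at 524 CPM (494 to 556) in patrolling monocytes of the knockout library, against 34.4 CPM in classical monocytes, 26.9 CPM in border macrophages and 23.8 CPM in microglia. In the wild-type library it stood at 613 CPM (493 to 753) in patrolling monocytes, against 76.4 CPM in classical monocytes, 34.9 CPM in border macrophages and 23.4 CPM in microglia. In both libraries neighbours among the lower 3 classes overlapped in their counting intervals. NK cells had no Fcgr4 UMI, which with 3 counts as the limit allows 10.1 CPM. That limit is 51.7-fold lower than the level in patrolling monocytes and 2.35-fold lower than that in microglia. The exact interval reaches 12.5 CPM, with a CPM log2 ratio to microglia of up to −0.93.

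Some RNA of patrolling monocyte markers was found in the microglia gate as well. Of the patrolling monocyte check markers (Spn, Eno3, Itgal, Pglyrp1, Adgre4 and Cd300e), all 6 had UMIs in knockout and in wild-type microglia, and their sum was 76.0 CPM in knockout and 24.2 CPM in wild-type microglia. That is 1.75% and 0.640% of their level in patrolling monocytes. At those shares patrolling RNA would give 9.16 of the 23.8 CPM of Fcgr4 in knockout microglia and 3.92 of the 23.4 CPM in wild-type microglia. For Cybb, which patrolling monocytes also hold at high levels, the same calculation gave 24.4 CPM in knockout and 17.2 CPM in wild-type microglia. Only 21.6 and 7.31 CPM were found, so the calculation can give too much.

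Fcgr2b, the inhibitory IgG receptor, was highest in border macrophages and lowest in patrolling monocytes and NK cells. The gene (ENSMUSG00000026656) lies on chromosome 1, 170786186 to 170804177, minus strand. Fcgr2b stood at 491 CPM in border macrophages, 204 CPM in microglia, 102 CPM in classical monocytes, 33.9 CPM in patrolling monocytes and 30.4 CPM in NK cells of the knockout library. In the wild-type library it stood at 996 CPM in border macrophages, 236 CPM in microglia, 158 CPM in classical monocytes and 54.5 CPM in patrolling monocytes. The order of the shared classes was the same in both libraries, and only the lowest pair in each overlapped in counting error. The extracellular domains of the proteins of Fcgr2b and Fcgr3 are closely alike in mice, so reads from that region could be split between them, and the sources used here do not say how such reads were counted. Antisense noncoding genes of the GENCODE annotation overlap Fcgr2b (Gm38204), Fcgr4 (Gm35090) and Fcgrt (Gm45669), and whether counting used strand is likewise not given.

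**Figure D1:**
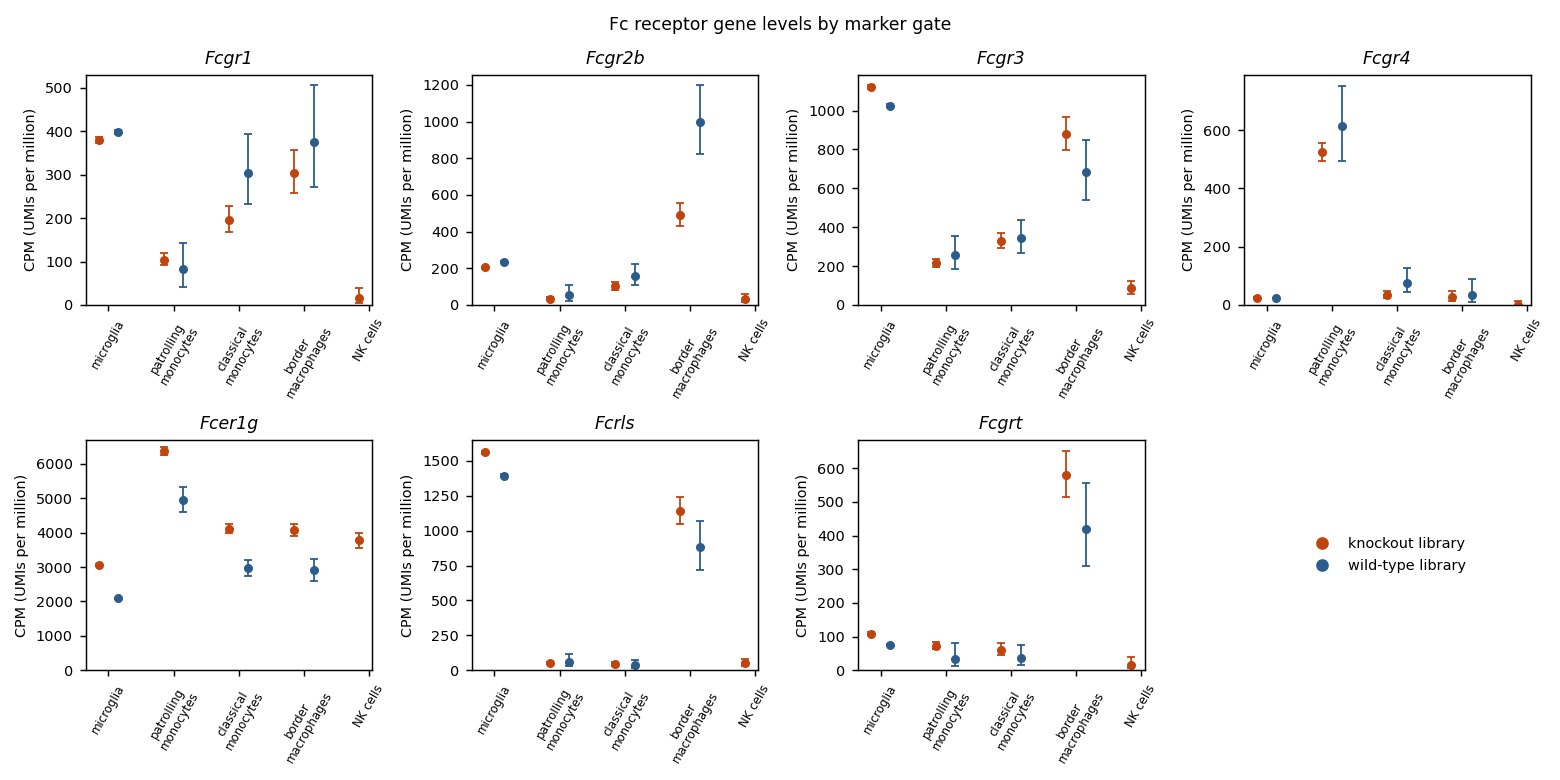
Level of each Fc receptor gene (vertical axis, CPM from 0, scaled for each gene) in the marker gates (horizontal axis), with the knockout library left of the wild-type library and exact 95% Poisson intervals as bars. Of the gates plotted, Fcgr4 stands at 524 and 613 CPM in patrolling monocytes and under 80 CPM in the others, Fcrls is at 882 CPM or more in microglia and border macrophages and under 62 CPM in the others, and Fcer1g is above 2000 CPM in each.

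The known signalling motifs of the gamma chain and of the inhibitory receptor are short and differ in kind, and they are shown because activating and inhibitory signals start from them. The activation motif of Fcer1g holds a pair of tyrosines and spans exons 4 and 5 (chr1:171057458-171057641, GRCm39, minus strand, intron left out). The inhibition motif of Fcgr2b holds 1 tyrosine and lies in exon 7 (chr1:170788634-170788663, minus strand). Capitals mark the tyrosine codons, and both are read from the canonical coding sequences of the GENCODE annotation.
Fcer1g: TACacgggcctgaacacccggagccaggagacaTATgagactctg
Fcgr2b: aatacgatcaccTACtcacttctcaagcat
A search for the spacing of the activation motif over the canonical coding sequences of the 7 members found it in Fcer1g alone, and not in Fcgr1, Fcgr3 or Fcgr4. The looser pattern of the inhibition motif, a match of letters only, was also met in Fcgr1 (2 matches), Fcgr4, Fcer1g and Fcgrt (1 match each), and the Fcgr2b match is the one printed because it is the known motif.

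Fcer1g, the common gamma chain that the activating receptors need to reach the surface and to signal, was above 2000 CPM in the myeloid and NK gates compared. The gene (ENSMUSG00000058715) lies on chromosome 1, 171057141 to 171062219, minus strand, and a long noncoding RNA of the GENCODE annotation, Gm71631, spans it on the same strand, so the separation of their reads is uncertain. Fcer1g stood at 6372 CPM in patrolling monocytes, 4115 CPM in classical monocytes, 4069 CPM in border macrophages, 3775 CPM in NK cells and 3061 CPM in microglia of the knockout library. In the wild-type library it stood at 4956 CPM in patrolling monocytes, 2968 CPM in classical monocytes, 2901 CPM in border macrophages and 2089 CPM in microglia. Patrolling monocytes were highest and microglia lowest in both, and adjacent classes between them overlapped in counting error. Of the background gates, B cells (15 cells) and T cells (8 cells) of the knockout library held less, at 303 and 350.4 CPM of Fcer1g. Knockout neutrophils (33 cells) did not, at 2959 CPM (2589 to 3367), an interval that covers the level in knockout microglia.

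Fcrls, an Fc receptor-like gene of the microglial signature of mice, divided the gates most sharply. The gene (ENSMUSG00000015852, named Fcrl2 in the GENCODE annotation) lies on chromosome 3, 87156616 to 87181827, minus strand. Fcrls stood at 1560.3 CPM in microglia and 1143 CPM in border macrophages of the knockout library, against 51.3 CPM in patrolling monocytes, 50.7 CPM in NK cells and 43.6 CPM in classical monocytes. Wild-type levels were 1394 CPM in microglia and 882 CPM in border macrophages, against 61.3 CPM in patrolling and 35.6 CPM in classical monocytes. The lower gates did not differ from their neighbours beyond counting error. Microglial RNA at the share of its markers would give 50.9 CPM in knockout patrolling monocytes and 47.2 CPM in NK cells, and 58.5 CPM in wild-type patrolling monocytes and 60.2 CPM in wild-type classical monocytes, and the 4 observed values lay within counting error of these. In knockout classical monocytes the yardstick gave 24.7 CPM, below the interval of 30.9 to 59.9 CPM. Border macrophages held far more Fcrls than the 244 CPM (knockout) and 169 CPM (wild-type) that microglial RNA would give.

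Fcgrt encodes the heavy chain of the neonatal Fc receptor, which pairs with beta-2-microglobulin and recycles IgG and albumin inside cells. The gene (ENSMUSG00000003420) lies on chromosome 7, 44742412 to 44756819, minus strand. Fcgrt stood at 579.8 CPM in border macrophages, 108 CPM in microglia, 72.9 CPM in patrolling monocytes, 60.8 CPM in classical monocytes and 16.9 CPM in NK cells of the knockout library. Wild-type levels were 419 CPM in border macrophages, 75.9 CPM in microglia and 35.6 CPM in classical monocytes on 7 UMIs, and the patrolling monocytes had 5 UMIs (11.1 to 79.4 CPM). Border macrophages were above all other gates in both libraries, and the monocyte gates were not separated from each other.

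Each class was then set against microglia of the same library. In knockout patrolling monocytes 2 of 7 members were called higher (31.2% of all measured genes were) and 4 lower (31.4% of genes) relative to the median gene. The CPM scale called the same 2 and 4 members, against 22.5% and 42.9% of genes. Fcgr4 was 22.0-fold higher on the CPM scale, a log2 ratio of 4.46 (4.33 to 4.59), and ranked 254th from the top of 8445 measured genes. Fcer1g was 2.08-fold higher. Fcrls was 30.4-fold lower, at rank 135 from the bottom, and Fcgr2b was 6.01-fold, Fcgr3 5.25-fold and Fcgr1 3.64-fold lower. The wild-type library gave 26.1-fold and 2.37-fold higher levels of Fcgr4 and Fcer1g and 22.8-fold, 4.33-fold, 3.96-fold and 4.88-fold lower levels of Fcrls, Fcgr2b, Fcgr3 and Fcgr1. Its patrolling gate, with 26 cells, rests on 8 to 90 UMIs for these members other than Fcer1g.

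In knockout border macrophages against microglia, 2 members were called higher (21.5% of all measured genes were) and 0 lower (21.9% of genes), and the CPM scale called the same members, against 16.8% and 26.9% of genes. Fcgrt was 5.36-fold higher, a log2 ratio of 2.42 (2.24 to 2.60), at rank 304 of 8542 measured genes, and Fcgr2b was 2.41-fold higher (log2 ratio 1.27, 1.07 to 1.45). The wild-type library gave 5.52-fold and 4.22-fold. In knockout NK cells 6 members were lower (35.3% of genes) and 0 higher (33.7% of genes), with the same counts on the CPM scale, against 40.4% lower and 28.4% higher. Fcer1g alone kept within 1.5-fold of microglia, at a CPM log2 ratio of 0.30.

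Knockout classical monocytes stood between these patterns, and their calls depended on the scale. Relative to the median gene, 2 members were higher (32.5% of genes), Fcgr4 and Fcer1g, and 2 lower (32.2% of genes), Fcgr3 and Fcrls. On the CPM scale no member was higher, against 21.9% of genes, and 5 were lower, against 45.2% of genes. Fcrls was 35.8-fold lower and Fcgr3 3.42-fold lower than in microglia, against 39.1-fold and 2.96-fold in the wild-type library.

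The balance of inhibitory to activating receptor RNA differed between the gates. Fcgr2b UMIs were divided by the summed UMIs of Fcgr1, Fcgr3 and Fcgr4, and since 3′ UMIs count 1 end per molecule and are not divided by gene length, the ratio is compared between gates and libraries only. It was 0.0403 (0.0315 to 0.0508) in knockout patrolling monocytes, 0.134 (0.130 to 0.137) in microglia, 0.183 (0.144 to 0.230) in classical monocytes and 0.406 (0.347 to 0.473) in border macrophages. The wild-type library gave 0.0571 (0.0242 to 0.116) in patrolling monocytes, 0.163 (0.160 to 0.166) in microglia, 0.217 (0.142 to 0.321) in classical monocytes and 0.912 (0.701 to 1.19) in border macrophages. Patrolling monocytes had the lowest and border macrophages the highest ratio in both libraries. Knockout microglia and border macrophages were below their wild-type counterparts beyond counting error, and the monocyte gates were not. Under alternative processing the border macrophage ratio ranged from 0.323 to 0.566 in the knockout and 0.535 to 1.33 in the wild-type library, and these ranges overlap.

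The make-up of the activating UMIs set patrolling monocytes apart. Fcgr4 made up 62.2% of them in knockout patrolling monocytes and 64.3% in wild-type patrolling monocytes. In microglia its share was 1.56% in the knockout and 1.62% in the wild-type library, with Fcgr3 at 73.5% and 70.8% and Fcgr1 at 24.9% and 27.6%. Classical monocytes and border macrophages held mostly Fcgr3 and Fcgr1 as microglia did.

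**Figure D2:**
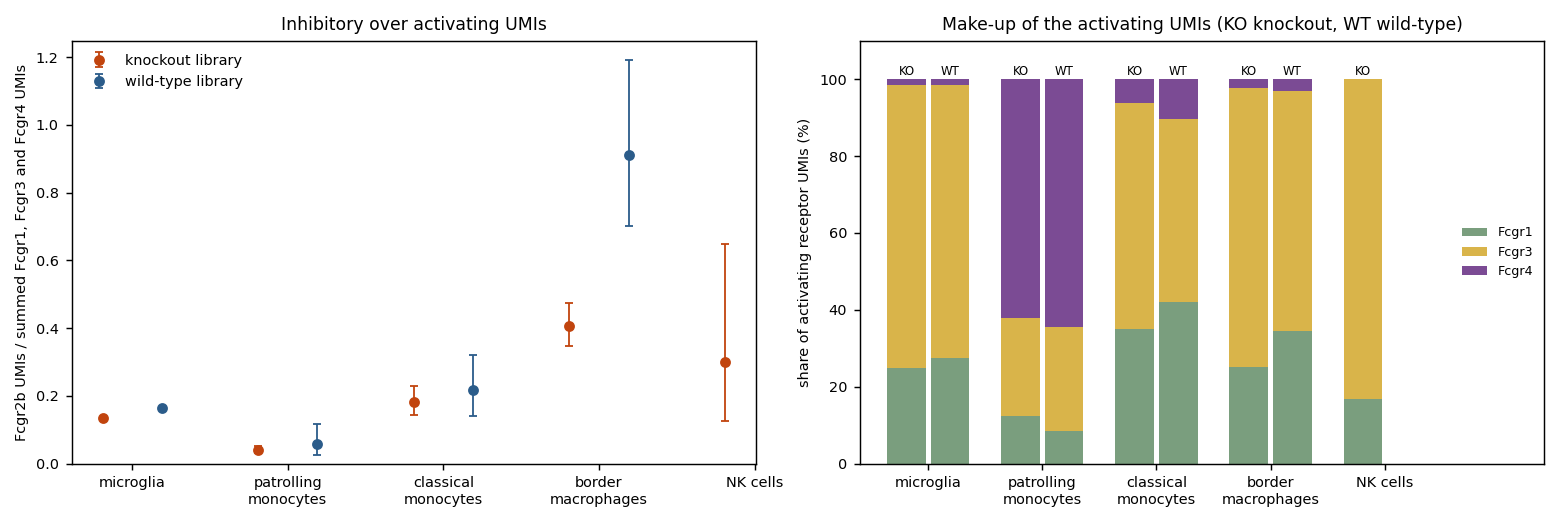
Left, Fcgr2b UMIs over the summed UMIs of Fcgr1, Fcgr3 and Fcgr4 (vertical axis, ratio from 0) in each gate, knockout left of wild-type, with exact 95% conditional intervals. Right, the share of each activating receptor gene in the activating UMIs (vertical axis, percent), where Fcgr4 takes 62.2% and 64.3% in patrolling monocytes and no more than 10.5% in the other gates plotted.

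Fcgr2b, Fcgr4 and Fcgr3 lie next to each other on chromosome 1 and had their highest levels in different classes, so their promoters are set side by side. The windows run from 250 bases before to 50 bases after the start site in RefSeq's GRCm38.p6 table, and each matched GRCm39 once and exactly, at chr1:170803591-170803890 (minus strand, Fcgr2b), chr1:170846245-170846544 (plus strand, Fcgr4) and chr1:170886923-170887222 (minus strand, the first of 2 starts of Fcgr3). Capitals mark GAGGAA, the core that PU.1 and other ETS factors bind, and TTGCNNAA, a C/EBP-type motif, searched on both strands.
Fcgr2b: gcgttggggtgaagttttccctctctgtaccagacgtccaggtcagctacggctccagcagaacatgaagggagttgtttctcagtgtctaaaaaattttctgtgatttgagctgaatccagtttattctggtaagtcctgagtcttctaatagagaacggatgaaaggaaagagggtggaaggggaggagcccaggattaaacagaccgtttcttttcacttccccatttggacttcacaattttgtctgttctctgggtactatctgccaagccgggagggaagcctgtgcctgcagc
Fcgr4: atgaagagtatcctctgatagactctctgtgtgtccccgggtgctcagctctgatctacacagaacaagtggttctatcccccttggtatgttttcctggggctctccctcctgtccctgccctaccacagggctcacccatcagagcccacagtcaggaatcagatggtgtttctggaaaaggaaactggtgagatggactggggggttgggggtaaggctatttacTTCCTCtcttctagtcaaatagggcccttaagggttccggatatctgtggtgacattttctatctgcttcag
Fcgr3: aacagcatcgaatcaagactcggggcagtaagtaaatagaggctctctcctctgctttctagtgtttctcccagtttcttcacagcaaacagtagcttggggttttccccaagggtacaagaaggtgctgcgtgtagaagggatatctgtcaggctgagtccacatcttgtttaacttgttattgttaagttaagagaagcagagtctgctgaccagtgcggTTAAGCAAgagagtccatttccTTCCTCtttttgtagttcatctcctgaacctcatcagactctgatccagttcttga
In Fcgr4 the GAGGAA match lies on the minus strand of the promoter with its first base at -22 from the start site, and it is part of the longer GAGGAAGT. In Fcgr3 GAGGAA lies at -6 and the C/EBP-type match at -28, and the Fcgr2b window holds neither. Of 32851 promoter windows, 28.3% hold GAGGAA, 3.20% GAGGAAGT and 10.8% TTGCNNAA, so these letters are common, and a match is a description of the window only.

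Comparing genotypes within microglia, Fcer1g and Fcgrt were higher in the knockout library relative to the median gene, and the other members lay within 1.5-fold. Relative to the median, 2 of 7 members were called higher (15.1% of all measured genes were) and 0 lower (12.4% of genes). On the CPM scale 0 members were called in either direction, against 4.53% of genes higher and 30.2% lower. The members' own median log2 ratio was 0.42 relative to the median gene and 0.13 in CPM.

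Fcer1g stood at 3061 CPM in knockout microglia, against 2089 CPM in wild-type microglia. Its log2 ratio was 0.55 (0.54 to 0.56) on the CPM scale, 1.47-fold, just under the rule, and 0.84 relative to the median gene, at rank 450 of 8715. Fcgrt stood at 108 CPM in knockout and 75.9 CPM in wild-type microglia, with a CPM log2 ratio of 0.51 (0.45 to 0.57), or 0.80 against the median gene, at rank 531. The remaining members moved less. Their CPM log2 ratio was 0.16 for Fcrls, 0.13 for Fcgr3, 0.02 for Fcgr4, −0.07 for Fcgr1 and −0.21 for Fcgr2b, and against the median gene it was 0.46, 0.42, 0.32, 0.22 and 0.08. For Fcgr1 and Fcgr2b the sign itself thus depended on the scale.

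The difference in Fcer1g was present at every depth of the cells. In microglia of 500 to 2000 UMIs Fcer1g stood at 2463 CPM in the knockout and 1714 CPM in the wild-type library. In the 4 deeper bands, up to cells of 15000 UMIs and over, it stood at 3047 to 3094 CPM in the knockout and 2043 to 2201 CPM in the wild-type library. The log2 ratio on the CPM scale was 0.47 to 0.60 over all 5 bands. Fcgrt kept its sign in every band (0.41 to 0.66 at 2000 UMIs or more, and 1.54 on 41 and 6 UMIs in the shallowest), whereas Fcgr4 changed sign between bands. Fcgr2b was at −0.70 to −0.18 on the same CPM scale, and in the 4 deeper bands (−0.23 to −0.18) that is less of a fall than that of the median gene of the gate (−0.29). Patrolling monocyte RNA at the share of its markers would give 111 CPM of the Fcer1g in knockout microglia and 31.7 CPM in wild-type microglia, and its part in the ratio was not tested. The same calculation gave more Cybb than was found in both libraries.

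**Figure D3:**
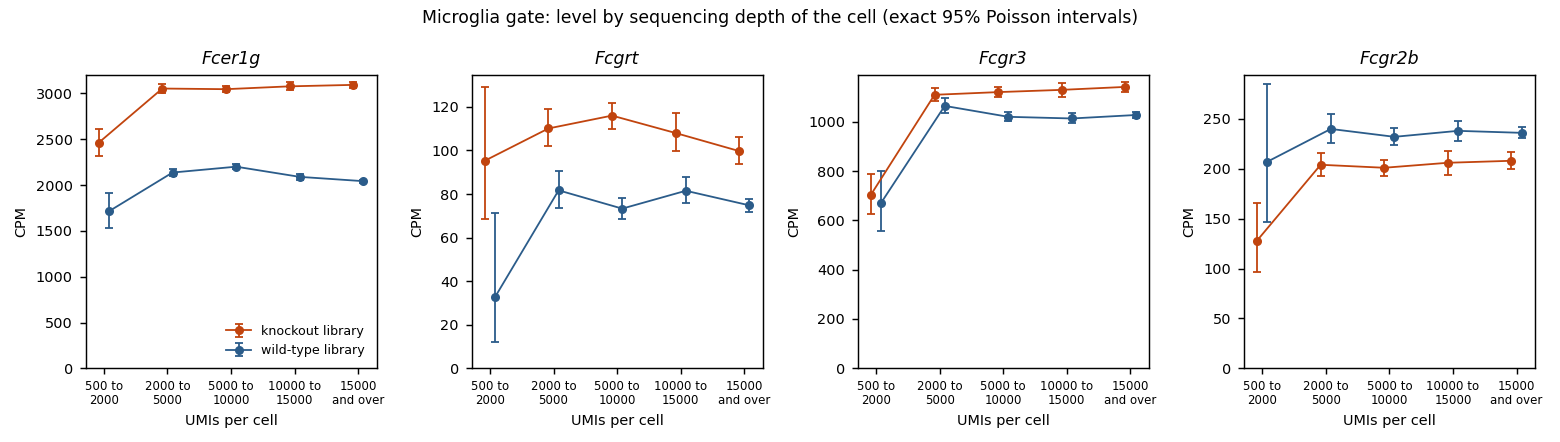
Level of Fcer1g, Fcgrt, Fcgr3 and Fcgr2b (vertical axes, CPM from 0) in microglia grouped by UMIs per cell (horizontal axis, shallow to deep), with exact 95% Poisson intervals as bars and each library as a line. The Fcer1g lines of the knockout (3047 to 3094 CPM) and wild-type library (2043 to 2201 CPM) run apart and nearly level from 2000 UMIs on, and both libraries are lower in the shallowest band.

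Other values moved between the microglia gates too. Erythroid markers summed to 701 CPM in knockout and 88.1 CPM in wild-type microglia (all 4 detected in both), NK markers to 20.8 against 5.10 CPM (6 of 6 and 5 of 6 detected, with Klre1 at 0 in the wild-type library), and classical monocyte markers to 42.1 against 8.14 CPM (6 of 6 in both). Border macrophage markers summed to 20.3 against 4.82 CPM, with all 6 detected in both. Neutrophil markers went the other way, at 197 CPM in knockout and 341 CPM in wild-type microglia, and B cell markers stood at 185 and 183 CPM. Their part in these ratios, and that of the lower depth and mitochondrially encoded share of the knockout library, was not tested.

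Fcer1g was higher in the knockout library in the other gates as well. The levels were 6372 against 4956 CPM in patrolling monocytes, 4115 against 2968 CPM in classical monocytes and 4069 against 2901 CPM in border macrophages. The log2 ratios on the CPM scale were 0.36 (0.25 to 0.47), 0.47 (0.34 to 0.60) and 0.49 (0.32 to 0.66). Each was under 1.5-fold on that scale and past it relative to the median gene, at 0.69, 0.77 and 0.64. Under alternative processing, Fcer1g was past the rule in 8 of 10 settings in patrolling monocytes. In classical monocytes it was past the rule in 7 of 9, and in border macrophages in 8 of 10. These libraries are the same in every gate, so the gates are not independent repeats.

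In border macrophages Fcgr2b was lower in the knockout library, the only member past 1.5-fold on both scales in that gate. It stood at 491 CPM (430.2 to 557) in 133 knockout cells, against 996 CPM (822 to 1197) in 24 wild-type cells. The CPM log2 ratio was −1.02 (−1.35 to −0.69), or −0.87 against the median gene. Relative to the median, 1 member was called lower (31.2% of genes) and 2 higher (29.2% of genes), the higher calls being Fcer1g and Fcgrt (0.62). On the CPM scale 1 was lower (35.4% of genes) and 0 higher (24.2% of genes). A gate on the sum of the marker pair, which takes in 253 knockout and 54 wild-type cells, ended the Fcgr2b call, at −0.33.

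The border gates differed in more than Fcgr2b. The gating marker Mrc1 stood at 1559 CPM in knockout and 3023 CPM in wild-type cells, Pf4 at 4806 and 2263 CPM, and the MHC class II gene H2-Aa at 1868 and 4028 CPM. In cells without an H2-Aa UMI, Fcgr2b stood at 570 CPM (106 knockout cells) and 1204 CPM (17 wild-type cells), and in cells with one at 284 CPM (27 cells) and 628 CPM (7 cells). The 7 cells hold 26 Fcgr2b UMIs, and the part of the Mrc1, Pf4 and H2-Aa levels in the Fcgr2b ratio was not tested. A second complete marker pair kept 733 knockout and 201 wild-type cells out of the border macrophage gate, more than it holds. The same rule kept 136 and 30 cells out of the classical monocyte gate, also more than it holds. It kept 351 and 32 cells out of the patrolling monocyte gate and 1123 and 258 out of the microglia gate.

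In the monocyte gates the differences between genotypes were mostly within counting error. In patrolling monocytes 3 members were called higher relative to the median (27.2% of genes) and 0 lower (26.6% of genes). They were Fcgr1 (0.68, −0.15 to 1.66), Fcer1g and Fcgrt (1.43, 0.17 to 3.07, on 159 and 5 UMIs). On the CPM scale 1 was higher (17.6% of genes) and 1, Fcgr2b, lower (39.0% of genes), at −0.68 (−1.74 to 0.58). Fcgr4, the receptor gene of this class, stood at 524 CPM in knockout and 613 CPM in wild-type cells, a CPM log2 ratio of −0.22 (−0.54 to 0.10), or 0.10 against the median gene.

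In classical monocytes 3 members were called higher relative to the median (26.7% of genes) and 1 lower (27.3% of genes). The higher calls were Fcer1g, Fcrls (0.59, −0.59 to 2.00) and Fcgrt (1.07, −0.07 to 2.46), and the lower call was Fcgr4 at −0.85 (−1.79 to 0.15), on 30 and 15 UMIs, which turned to 0.45 with each cell thinned to 2000 UMIs. On the CPM scale 1 member was higher (16.9% of genes) and 3 lower (37.3% of genes), with Fcgr1 at 195 CPM in knockout and 305 CPM in wild-type cells (−0.65, −1.08 to −0.20).

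**Figure D4:**
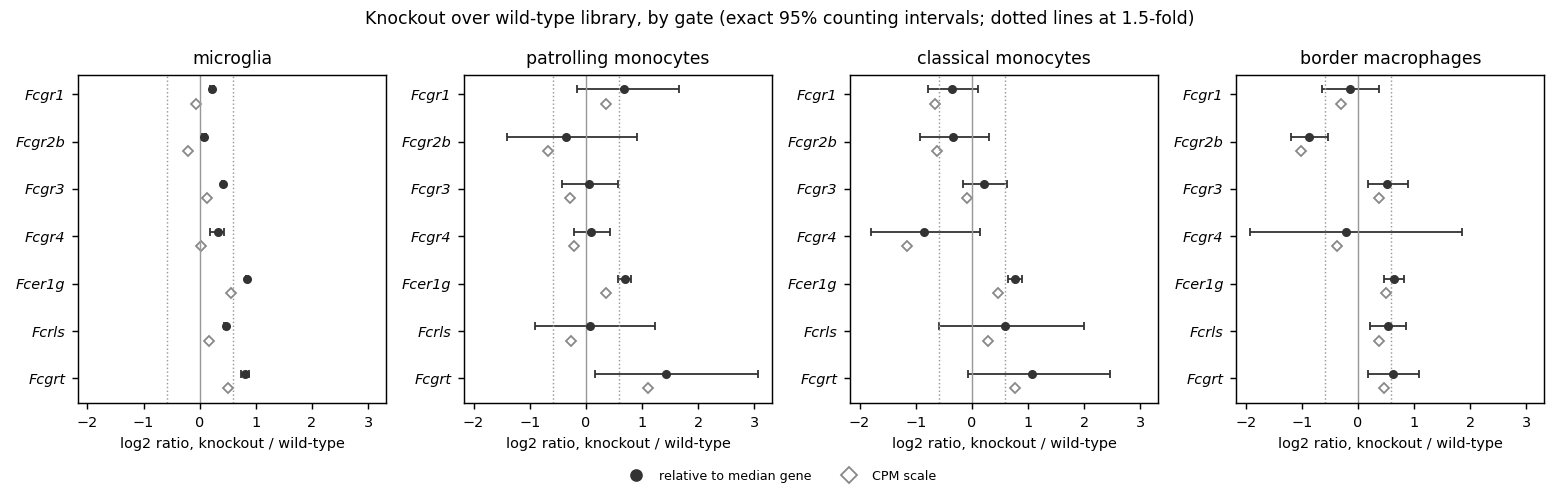
Log2 ratio of knockout over wild-type for each member (rows) in the gates that both libraries fill, relative to the median gene (filled circles with exact 95% intervals) and on the CPM scale (open diamonds), with dotted lines at 1.5-fold. Fcer1g lies at 0.64 to 0.84 relative to the median in all 4 gates, Fcgr2b lies below the lower line in border macrophages, and the intervals are wide in the small monocyte gates.

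Counting cells rather than UMIs gave the same division of the classes. After each cell was thinned to 2000 UMIs, 55.7% of 409 knockout patrolling monocytes and 68.0% of 25 wild-type patrolling monocytes had an Fcgr4 UMI, against 3.82% of 4236 knockout and 4.06% of 4881 wild-type microglia. Unthinned, 79.1% of knockout and 80.8% of wild-type patrolling monocytes (medians of 5005 and 5554 UMIs) and 12.8% and 20.3% of microglia (medians of 5597 and 7234 UMIs) had one. Of 58 NK cells (median depth 4388 UMIs) and 15 B cells of the knockout library, where the gene should be absent, 0 had an Fcgr4 UMI with or without thinning. With 3 counts as the limit, the NK cells allow a share of up to 5.17%, which the thinned microglial shares did not exceed and the unthinned ones did.

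Fcrls had a UMI in 89.4% of knockout and 90.1% of wild-type microglia and in 73.9% and 81.0% of border macrophages, against 8.56% of knockout and 4.00% of wild-type patrolling monocytes. NK cells of the knockout library, at 6.90% (1.91 to 16.7), give the background for that gene, and both patrolling shares lay within that interval. Without thinning the shares were 94.9% and 97.5% in microglia, 82.0% and 91.7% in border macrophages, 20.9% and 26.9% in patrolling monocytes, and 11 of 58 NK cells had a UMI.

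Fcgr2b had a UMI in 54.3% (43.6 to 64.8) of 92 knockout border macrophages and 85.7% (63.7 to 97.0) of 21 wild-type border macrophages, with shares of 62.4% and 83.3% before thinning, at median depths of 3726 and 4463 UMIs. In microglia the shares were 32.3% and 36.3% (64.9% and 77.9% before thinning). No knockout T cell of 8 had an Fcgr2b UMI. Fcgrt had a UMI in 64.1% of knockout and 52.4% of wild-type border macrophages, against 18.9% (17.8 to 20.1) of knockout and 14.7% (13.7 to 15.7) of wild-type microglia. Before thinning these were 67.7% and 79.2% of border macrophages and 48.9% and 49.2% of microglia. Of 33 knockout neutrophils 0 had an Fcgrt UMI before thinning, which allows up to 9.09%, and 8.62% of 58 knockout NK cells had one.

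Most microglia carried the gamma chain together with a receptor for it. An Fcer1g UMI and a UMI of Fcgr1, Fcgr3 or Fcgr4 were found together in 93.8% of knockout and 91.3% of wild-type microglia, 89.1% and 85.7% of border macrophages, 73.8% and 84.0% of patrolling monocytes and 64.6% and 75.0% of classical monocytes. In NK cells the pair was found in 11 of 58 cells, and 81.0% had Fcer1g with no activating IgG receptor UMI. Fcgr2b was found together with an activating receptor in 30.7% of knockout and 34.1% of wild-type microglia and in 46 of 92 knockout and 17 of 21 wild-type border macrophages, but in 5.87% and 8.00% of patrolling monocytes. Cells had a mean of 3.85 and 3.83 members in microglia and 4.21 and 4.43 in border macrophages, against 2.33 and 2.28 in patrolling monocytes.

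**Figure D5:**
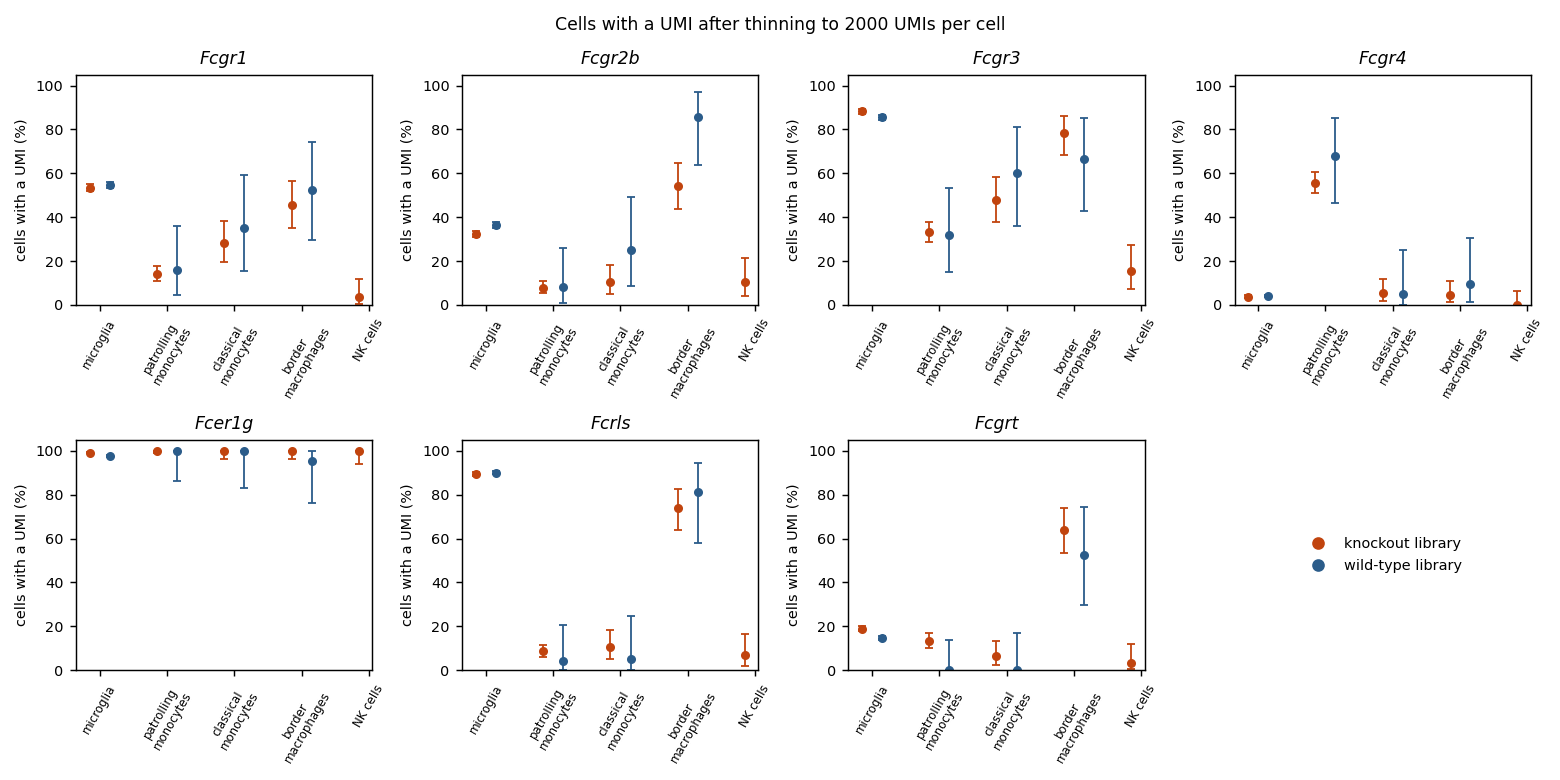
Share of cells with at least 1 UMI of each member after thinning every cell to 2000 UMIs (vertical axes, percent) by gate, knockout left of wild-type, with exact 95% binomial intervals. Of the gates plotted, Fcer1g is found in 95.2% of cells or more in each, while Fcgr4 is found in 55.7% and 68.0% of patrolling monocytes and in under 10% of cells of the others.

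In microglia the variance over the mean lay near the counting value for most members. This measure rises with a gene's mean, and genes with few UMIs per cell stay near 1. It therefore does not rank genes or gates by how much their cells vary. In thinned microglia the variance of UMIs per cell over their mean was 1.04 to 1.11 for Fcgr1, Fcgr2b, Fcgr3 and Fcgrt in the knockout library and 1.03 to 1.12 in the wild-type library, where 1 is the value of pure counting. It was 1.74 and 1.39 for Fcrls, 1.35 and 1.23 for Fcer1g and 1.25 and 1.07 for Fcgr4. Knockout border macrophages, a gate that holds microglial RNA, had higher values for Fcrls (2.10), Fcer1g (1.81), Fcgr2b (1.70) and Fcgrt (1.40). Fcgr1 (1.05) and Fcgr3 (1.15) lay near their microglial values there. Knockout patrolling monocytes had 1.83 for Fcer1g and 1.58 for Fcgr4, and 1.03 to 1.27 for the other members.

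Other genes of Fc receptor signalling were examined by lists in microglia. Of the partner chains Tyrobp, Hcst, B2m and Cd247, 3 were measured and 2 were called higher relative to the median gene (background 15.1%), with none on the CPM scale. Tyrobp, an adaptor with an activation motif like that of Fcer1g, stood at 2998 CPM in knockout and 2297 CPM in wild-type microglia (CPM log2 ratio 0.38, relative 0.68). Hcst, the adaptor DAP10, stood at 46.2 and 32.3 CPM (0.52 and 0.81), and B2m, the partner of Fcgrt, at 1764 and 1804 CPM (−0.03 and 0.26).

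Of 18 measured kinases and activating adaptors, 1 was higher and 2 were lower relative to the median, against 15.1% and 12.4% of all genes. By CPM the counts were 1 and 7, against 4.53% and 30.2% of genes, and the list median was −0.08 relative to the median gene. Card9, an adaptor downstream of Syk, was higher, at 45.9 CPM in knockout and 29.7 CPM in wild-type microglia (0.92). Gab2, a scaffold of phosphatidylinositol 3-kinase, stood at 22.2 and 49.4 CPM (−0.86) and Sos1, a Ras activator, at 15.2 and 28.9 CPM (−0.63). Syk itself stood at 99.5 and 156 CPM, within the rule relative to the median (−0.36) and past it on the CPM scale (−0.65).

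Of 10 measured inhibitors, 1 was higher and 2 were lower relative to the median (15.1% and 12.4% of all genes), with 0 and 4 on the CPM scale (4.53% and 30.2% of genes). Dok3, an adaptor that restrains such signals, stood at 54.4 CPM in knockout and 38.0 CPM in wild-type microglia (0.81). The ubiquitin ligase gene Cbl stood at 97.0 and 206 CPM (−0.80), and Inppl1, the gene of the phosphatase SHIP2, at 14.8 and 27.3 CPM (−0.59). Inpp5d, the gene of SHIP1, the phosphatase that the motif of Fcgr2b recruits, stood at 322 and 530.4 CPM, at −0.43 relative to the median and −0.72 on the CPM scale.

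Of 18 phagocytic effectors, 5 were higher and 1 was lower relative to the median (15.1% and 12.4% of all genes), with 2 and 4 on the CPM scale (4.53% and 30.2% of genes) and a list median of 0.31 relative and 0.02 on the CPM scale. Cyba and Cybb, the membrane chains of the NADPH oxidase, stood at 1371 and 21.6 CPM in knockout microglia, against 898 and 7.31 CPM in wild-type microglia (0.90 and 1.86). Rac2, a GTPase of the oxidase, stood at 166 and 114 CPM (0.84), Vamp3 at 124 and 97.7 CPM (0.64) and Coro1a at 576 and 469 CPM (0.59). Dock2, a Rac activator, was lower, at 112 and 213 CPM (−0.64). Patrolling monocytes are rich in Cybb, with 1397 CPM in the knockout library, and at the share of their markers their RNA would give 24.4 CPM of Cybb in knockout microglia, where 21.6 CPM was found, and 17.2 CPM in wild-type microglia, where 7.31 CPM was found. The yardstick thus gave more than was found in both libraries, and the part of patrolling RNA in the Cybb ratio was not tested. For Cyba the same yardstick gave 56.9 CPM in knockout and 14.6 CPM in wild-type microglia, and for Rac2 12.6 and 3.18 CPM.

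Against microglia, knockout patrolling monocytes were higher in most phagocytic effectors and inhibitors and in fewer kinases and adaptors. Relative to the median gene, 14 of 18 phagocytic effectors were higher and 3 lower (background 31.2% and 31.4%), as were 7 of 10 inhibitors with 1 lower, 9 of 20 kinases and adaptors with 4 lower, and all 3 measured partner chains. On the CPM scale the counts were 10 higher and 3 lower effectors, 6 and 2 inhibitors, 7 and 6 kinases and adaptors, and 3 and 0 partner chains, against 22.5% and 42.9% of all genes. Of the effectors, Cybb stood at 1397 CPM in patrolling monocytes and 21.6 CPM in microglia, Ncf4, a cytosolic chain of the oxidase, at 379 and 72.7 CPM, and Rac2 at 723 and 166 CPM. The actin regulators Coro1a (2414 and 576 CPM), Arpc5 (666 and 184 CPM) and Myo1f (229 and 64.6 CPM) were higher too. Lower effectors were Elmo1 (62.8 and 276 CPM), Ncf1 (109 and 284 CPM) and Crkl (11.9 and 25.7 CPM).

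Among kinases and adaptors the Src-family genes Fgr (317 CPM in patrolling monocytes and 7.03 CPM in microglia) and Fyn (159 and 16.3 CPM) were higher, while Src itself had 2 UMIs against 20.1 CPM in microglia. The Rac activator Vav3 (38.0 and 0.957 CPM), the phospholipase gene Plcg2 (107 and 56.7 CPM) and the kinase gene Prkcd (354 and 191 CPM) were also higher. The adaptor Blnk (12.4 and 230.1 CPM), Pik3r1 (51.8 and 381 CPM) and Vav1 (66.4 and 138 CPM) were lower. Patrolling monocytes thus differed from microglia in which kinase and adaptor genes they held, with members of the same families on either side.

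The inhibitors that were higher included the receptors Pirb (174 CPM in patrolling monocytes and 17.5 CPM in microglia) and Cd300a (703 and 213 CPM) and the phosphatases Ptpn6 (521 and 200.2 CPM) and Ptpn11 (60.5 and 24.0 CPM). Cblb (84.3 and 10.7 CPM) and Dok3 (205 and 54.4 CPM) were higher as well. Inpp5d was lower, at 100.4 and 322 CPM, and on the CPM scale Inppl1 was too, at 9.62 and 14.8 CPM. The partner chains B2m (5083 and 1764 CPM), Tyrobp (5070 and 2998 CPM) and Hcst (71.0 and 46.2 CPM) were all higher.

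Between genotypes, patrolling monocytes had 3 higher and 6 lower of 19 kinases and adaptors relative to the median (background 27.2% and 26.6%), 2 higher and 3 lower of 10 inhibitors, and 5 higher and 2 lower of 18 effectors. The CPM scale gave 2 and 8, 0 and 5, and 1 and 6, against 17.6% and 39.0% of genes. No measured partner chain was called on either scale. Most values of the 26 wild-type cells rest on few UMIs.

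The better counted of the called genes were effectors. Cyba stood at 3259 CPM in knockout and 2281 CPM in wild-type patrolling monocytes (0.84 relative to the median), Rac2 at 723 and 497 CPM (0.87), Coro1a at 2414 and 1954 CPM (0.63) and Ncf4 at 379 and 306 CPM (0.64). Cybb was lower, at 1397 and 2696 CPM (−0.62), as was Dock2 at 166 and 334 CPM (−0.68). Crkl, counted as higher, had 26 UMIs against 0 in the wild-type library, where 0 gives no fold at this depth. Cyba and Cybb, chains of the same complex, thus lay on opposite sides in patrolling monocytes.

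Called kinases and adaptors in that comparison were Card9, Pik3cd and Lat2 on the higher side, with 3, 5 and 7 wild-type UMIs. On the lower side, Pik3ap1 stood at 118 CPM in knockout and 272 CPM in wild-type cells (−0.88), Gab2 at 29.8 and 88.5 CPM (−1.24), Vav3 at 38.0 and 88.5 CPM (−0.89), Vav1 at 66.4 and 129 CPM (−0.63) and Btk at 37.6 and 74.9 CPM (−0.67), beside Sos1 with 23 and 5 UMIs. The inhibitors Pirb (0.76) and Dok3 (0.72) were higher, and Ptpn11 (−0.91), Cbl (−0.88) and Dok2 (−0.83, on 20 and 3 UMIs) were lower. Gab2, Sos1, Cbl and Dock2 were lower and Card9, Dok3, Rac2, Cyba and Coro1a higher in both microglia and patrolling monocytes of the knockout library, gates that share their libraries. Cybb, also called in both, was higher in microglia (1.86) and lower in patrolling monocytes (−0.62). The patrolling intervals of Card9 (−0.12 to 3.77) and Sos1 (−2.79 to 0.39) are wide. The share of all genes called the same way in both gates was not computed.

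Of 11 other Fc and Fc-like receptor genes, among them Fcer1a, Fcmr, Pigr and Fcrl5, 1 was measured in microglia, Fcrl1, at 20.5 CPM in knockout and 25.0 CPM in wild-type microglia. It stood at 9.62 CPM in knockout patrolling monocytes. Trim21, the gene of a cytosolic antibody receptor, was the 1 measured between genotypes in patrolling monocytes, on 19 knockout and 3 wild-type UMIs.

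Genes with the pattern most like each member were named by Pearson's r of log2(CPM + 1) over 10 groups of gate and library whose cells share libraries and depth, so that r is a description only, among 5855 genes at 50 CPM or more in a group. For Fcrls they were C1qa (0.993) and C1qb (0.989), chains of the complement initiator C1q, and Zfp90 (0.989). For Fcgr4 they were Phyh (0.961), Pilra (0.952) and Bcl6 (0.950). The nearest to Fcgr1 was Ly86 (0.975), to Fcgr3 Cryba4 (0.983), to Fcgr2b Tmem176b (0.959), to Fcgrt Mid1ip1 (0.959) and to Fcer1g Gng5 (0.889). Among the members themselves Fcgr2b and Fcgrt (0.86), Fcgr1 and Fcgr3 (0.85) and Fcgr3 and Fcrls (0.85) were closest, and Fcgr3 and Fcer1g ran most opposite (−0.55).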

How the data were processed

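Single-cell RNA sequencing used the 10x Genomics 3′ v2 chemistry, per the labels' protocols. The values the authors deposited are whole UMI counts for each gene and barcode, made with Cell Ranger (version 7.0.0 per the file headers, 6.0 per the labels' protocols) on GRCm39, per the labels. The deposited barcodes start at 500 UMIs, and library totals were 67575835 UMIs (knockout) and 68576464 UMIs (wild-type). Of 55357 genes, 54749 (98.9%) matched the GENCODE annotation by identifier.

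The members, markers and gene lists were chosen with earlier results of these data known. The named genes are the members and, of each list, genes past 1.5-fold in the microglia or patrolling comparison, up to 6 in each direction by size. Syk, B2m and Inpp5d in microglia were named after their values were seen. A gene of the lists that the rule names is not reported here. CPM are a gate's summed counts scaled to its own total in that library. Gates that demand a single complete marker pair leave out evident mixed cells, and no doublet caller was run. Ratios needed 20 cells in each group. Gates in which RNA of other cells may weigh were set against the summed level of that class's check markers. Shares used cells thinned to 2000 UMIs by seeded draws, leaving out 343 shallower knockout and 136 shallower wild-type microglia, 41 and 3 border macrophages and 8 and 1 patrolling monocytes. Intervals are exact at 95% (Poisson, binomial and conditional). The steps were tested on simulated data. Promoters come from RefSeq. Python 3.11.15, NumPy 2.4.6, SciPy 1.17.1 and pandas 2.3.3 were used.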

Additional observations from a re-analysis of the deposited data

Results flagged for a closer look

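Neutrophils (S100a8 and S100a9) entered no comparison of gates or genotypes, only the groups used for the correlations. Yet 3 members stood above the microglial background in the 33 cells of that gate in the knockout library. They were noted as a signal outside the compared classes. Fcer1g stood at 2959 CPM (2589 to 3367), Fcgr3 at 412 CPM (282 to 581) and Fcgr4 at 103 CPM (44.4 to 203). Microglial RNA at the share of its check markers in that gate, 11.8%, would give 360.1, 132 and 2.80 CPM. The Fcgr4 value rests on 8 UMIs. Patrolling monocyte check markers summed to 2997 CPM in that gate, with 3 of 6 detected (Spn, Itgal and Pglyrp1). Eno3, Adgre4 and Cd300e had no UMI, and the source of that sum and its part in the Fcgr4 value were not tested. The wild-type library had 3 such cells, with 1908 CPM of Fcer1g on 14 UMIs.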

How the results depend on the processing

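Of 166 counts of called members recomputed under 11 alternatives, 139 stayed within 1.5 times the reported count and 27 did not. Without centring on the median gene, knockout over wild-type gave 0 higher members in microglia (4.53% of genes) and 0 in border macrophages (24.2%). It gave 1 higher (17.6%) and 1 lower (39.0%) in patrolling monocytes, and 1 higher (16.9%) and 3 lower (37.3%) in classical monocytes. Classical monocytes over microglia gave 0 higher (21.9%) and 5 lower (45.2%). For the alternatives that follow, the share of all genes called is not given. Their counts are therefore not read as results about the members. Centring on genes at 30 CPM gave, for knockout over wild-type, 1 higher in patrolling monocytes, 1 higher and 2 lower in classical monocytes and 0 higher in border macrophages, and 0 higher and 5 lower for classical monocytes over microglia. Thinning gave 0 lower in classical monocytes and 1 higher in border macrophages between genotypes, and against microglia 5 lower in classical monocytes, 4 higher in border macrophages and 1 higher in NK cells. A gate on the summed marker pair (at least 2 UMIs and more than in every other pair) gave 1 lower in patrolling monocytes and 0 lower in border macrophages between genotypes. No minimum of genes left 1 higher in border macrophages. For classical monocytes over microglia a strict gate (no UMI of any other class's marker) gave 5 lower, and a floor of 50 CPM gave 1 higher and 5 lower. For NK cells over microglia, cells of 3000 to 10000 UMIs, and cells up to 15000 UMIs, each gave 1 higher, Fcer1g. Of 569 single ratios 1 reversed a called value, Fcgr4 between genotypes in classical monocytes at 0.45 when thinned. The causes were not tested beyond the construction of each alternative.

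Over the alternatives Fcer1g in microglia ranged from 0.55 to 0.93 and was past the rule in 10 of 11, the exception being the CPM scale. Fcgr2b in border macrophages ranged from −1.40 to −0.33 and was past it in 9 of 10. Fcgr4 in patrolling monocytes over microglia (4.17 to 5.15) and Fcgrt in border macrophages over microglia (2.00 to 2.59) passed in all 11. Fcgr4 between genotypes in microglia ranged from −0.03 with the strict gate to 0.90 with the gate on the summed pair. The Fcgr2b over activating ratio in wild-type border macrophages ranged from 0.535 to 1.33, against 0.323 to 0.566 in knockout border macrophages. These ratios were recomputed, and the marker yardsticks and the H2-Aa split were added, after seeing the data. The strict gate left under 20 cells for the monocyte and border macrophage comparisons of genotypes and for NK cells, as did the 3000 to 10000 UMI band for classical monocytes, so these were not run, and no ratio was had where a group was at 0 UMIs. No paired analysis was possible because each genotype has 1 library. Gates of 20 to 26 wild-type cells limit all but the largest ratios.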
